A study of Arabidopsis thaliana with 11 samples.

Results

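The wall-associated kinases of Arabidopsis thaliana were followed across 4 genotypes through 6 genes, chosen by gene code. WAK4 (AT1G21210), WAK5 (AT1G21230), WAK3 (AT1G21240), WAK1 (AT1G21250) and WAK2 (AT1G21270) form one tandem cluster, and the WAK-like gene WAKL10 (AT1G79680) lies elsewhere on the same chromosome. Of the 6 genes, 5 have a line in the count table of 22160 genes, and those 5 passed the filter on low counts that left 21580 genes for testing. WAK4 has no line there and is listed at 0 in every library of the transcript table.

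Whole seedlings, 10 days old and grown without treatment on half-strength Murashige and Skoog medium with sucrose, were profiled by strand-specific mRNA sequencing. The groups were the xpo4-2 cpr5 double mutant (n = 3), the cpr5 mutant (n = 3), the xpo4-2 mutant (n = 2) and Col-0 wild type (n = 3). XPO4 encodes an exportin, a carrier of proteins between nucleus and cytoplasm, and CPR5 is a nuclear envelope protein whose loss switches on immune responses without infection; the series title presents XPO4 as a negative regulator of immune activation in cpr5. The labels do not name the cpr5 allele. Separate sowings are not mentioned for the replicates, and the p-values below therefore rest on a spread between libraries that may be technical.

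Wall-associated kinases are receptor-like kinases that span the plasma membrane. Their outer part binds pectin and the oligogalacturonides that are released when the wall is broken down, and their inner part is a serine/threonine kinase. WAK1 is known as an oligogalacturonide receptor and as a gene induced by salicylic acid and wounding, WAK2 as a gene needed for cell expansion, and WAKL10 as a kinase with guanylyl cyclase activity.

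In RefSeq's annotation of the TAIR10.1 assembly the cluster spans chr1:7423704-7448483, which is 24780 bases, with the 5 genes on the plus strand in the order WAK4, WAK5, WAK3, WAK1, WAK2. WAKL10 lies at chr1:29979973-29982819 on the minus strand. WAK1 (chr1:7439171-7442113) and WAK3 (chr1:7434235-7436830) each have 3 exons and encode 735 and 741 residues. Their predicted proteins were identical at 76.8% of aligned residues, the highest share among pairs of the cluster, whose lowest was 67.8%. The likeness was uneven along the protein. Up to the last exon, which holds most of the extracellular part, WAK1 and WAK3 matched at 62.7% of residues, and in the last exon, which holds the kinase domain, at 88.6%. WAKL10 matched the cluster proteins at 37.6% to 39.5%.

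The longest run of bases that WAK1 and WAK3 share is 127 bases of coding sequence in exon 3, at chr1:7441612-7441738 in WAK1 and chr1:7436422-7436548 in WAK3, both on the plus strand. It is shown because reads that fall inside it cannot be assigned to either gene by sequence.
WAK1 and WAK3 shared run: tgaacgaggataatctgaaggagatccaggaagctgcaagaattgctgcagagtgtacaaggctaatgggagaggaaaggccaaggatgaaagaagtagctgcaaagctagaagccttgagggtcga
Over whole transcripts, 13.0% of the 31-base words of WAK1, 7.61% of those of WAK3 and 7.54% of those of WAK2 also occur in another of the 6 genes, against 0 for WAKL10. Counting any other annotated gene, the share was again 13.0% for WAK1 but 17.4% for WAK3 and 34.7% for WAK2. The genes concerned include the kinase fragment AT1G21245 for WAK3, and the pseudogene AT1G21260 and the overlapping AT1G21280 for WAK2. The sources used here do not state how reads matching several genes were counted, so levels within the cluster carry that uncertainty. WAK2 carries a second one. The RefSeq model gives it a 3′ UTR of 1138 bases that overlaps a gene on the other strand, the retrotransposon-like AT1G21280 (chr1:7447490-7448483), and the strand setting used in counting was not stated.

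The 250 bases before the annotated start were read for each gene, and those of WAK3, WAK1 and WAK2, the 3 cluster genes with appreciable counts, are printed 5′ to 3′. Capitals mark TTGAC, the core of the W-box to which WRKY factors bind, which reads GTCAA on the other strand. They also mark the TGA factor core TGACG, which reads CGTCA on the other strand. The base after a core was not part of the search, and binding was not tested.
WAK3, chr1:7433985-7434234, plus strand: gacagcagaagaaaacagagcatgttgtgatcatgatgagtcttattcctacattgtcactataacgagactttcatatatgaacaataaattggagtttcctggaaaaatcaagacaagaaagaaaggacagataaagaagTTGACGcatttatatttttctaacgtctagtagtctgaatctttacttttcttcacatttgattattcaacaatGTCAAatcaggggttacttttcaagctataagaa
WAK1, chr1:7438921-7439170, plus strand: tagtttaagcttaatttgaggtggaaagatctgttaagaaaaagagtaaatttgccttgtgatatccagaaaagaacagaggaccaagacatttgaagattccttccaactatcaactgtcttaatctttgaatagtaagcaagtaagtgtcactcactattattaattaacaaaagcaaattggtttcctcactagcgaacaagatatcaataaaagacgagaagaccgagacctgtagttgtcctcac
WAK2, chr1:7444499-7444748, plus strand: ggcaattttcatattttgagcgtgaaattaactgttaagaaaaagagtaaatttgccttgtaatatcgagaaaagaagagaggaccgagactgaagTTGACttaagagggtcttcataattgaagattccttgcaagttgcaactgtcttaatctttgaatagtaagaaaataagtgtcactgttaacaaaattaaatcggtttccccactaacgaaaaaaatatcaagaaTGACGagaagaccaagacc
The WAK3 window holds 2 W-box cores, 108 and 34 bases before the start, and a TGACG that overlaps the first of them. The WAK1 window holds neither motif. The WAK2 window holds 1 W-box core 154 bases and 1 TGACG 19 bases before the start. Read on the strand of each core, the base after TTGAC is G and A at the 2 cores of WAK3 and T at the core of WAK2. WAK4, WAK5 and WAKL10 have 1 W-box core each. Over 27443 genes, 44.9% of such windows hold at least 1 W-box core, 14.1% hold at least 2 and 18.6% hold at least 1 TGACG. The windows of WAK1 and WAK2 also share a run of 30 bases that begins 220 bases before the start of WAK1 and 219 before that of WAK2.
WAK1 and WAK2 shared upstream run: ctgttaagaaaaagagtaaatttgccttgt
No other pair of the 6 windows shares more than 11 bases in a row.

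Library totals ran from 16922732 to 23088104 counts. XPO4 was at 0 to 2.27 CPM (counts per 1000000 counts of the library, scaled by TMM factors) in xpo4-2 cpr5, 18.3 to 27.7 in cpr5, 1.00 and 4.80 in xpo4-2 and 19.6 to 23.5 in wild type, so it was low in every library labelled xpo4-2. CPR5 transcript was present in all libraries, at up to 24.6 CPM in xpo4-2 cpr5 and 17.8 CPM in cpr5, against up to 13.3 CPM in wild type, so it does not check the cpr5 label. Wild-type replicates 1 and 3 had the lowest correlation across genes between libraries of 1 genotype, at 0.937. Wild-type replicate 1 was the lowest wild-type library for WAK1, WAK3 and WAKL10, and replicate 3 the highest. Markers of mesophyll moved as well: 6 of 6 were lower in xpo4-2 cpr5 than in cpr5, with a summed level of 4042 to 5889 CPM in xpo4-2 cpr5, 17405 to 18698 in cpr5, 21461 to 27192 in xpo4-2 and 13538 to 22191 in wild type, and none of them was at 0. The 8 root and root hair markers summed to 94.5 to 138 CPM in xpo4-2 cpr5, 44.4 to 58.4 in cpr5, 45.3 to 77.0 in xpo4-2 and 12.1 to 45.4 in wild type. Of these 8, only 1 passed as higher in xpo4-2 cpr5 than in cpr5 and 0 as lower. The seed storage gene SESA1 was at 0.182 to 0.487 CPM in xpo4-2 cpr5, 7.82 to 8.16 in cpr5, 7.46 to 18.8 in xpo4-2 and 38.1 to 67.8 in wild type. The other 3 genes of that list are not in the count table. Of 6 trichome markers, 4 were lower in xpo4-2 cpr5 than in cpr5, with sums of 5.15 to 8.15 CPM in xpo4-2 cpr5 and 17.5 to 21.4 CPM in cpr5, and of 7 stomatal lineage and 7 vascular markers 1 was higher and 1 lower. Over all genes, 8.82% were higher and 12.9% lower in that comparison. The part of these markers in the results below was not tested. In whole seedlings a change in a transcript within cells cannot be told apart from a change in the share of the cells that hold it.

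**Figure D1:**
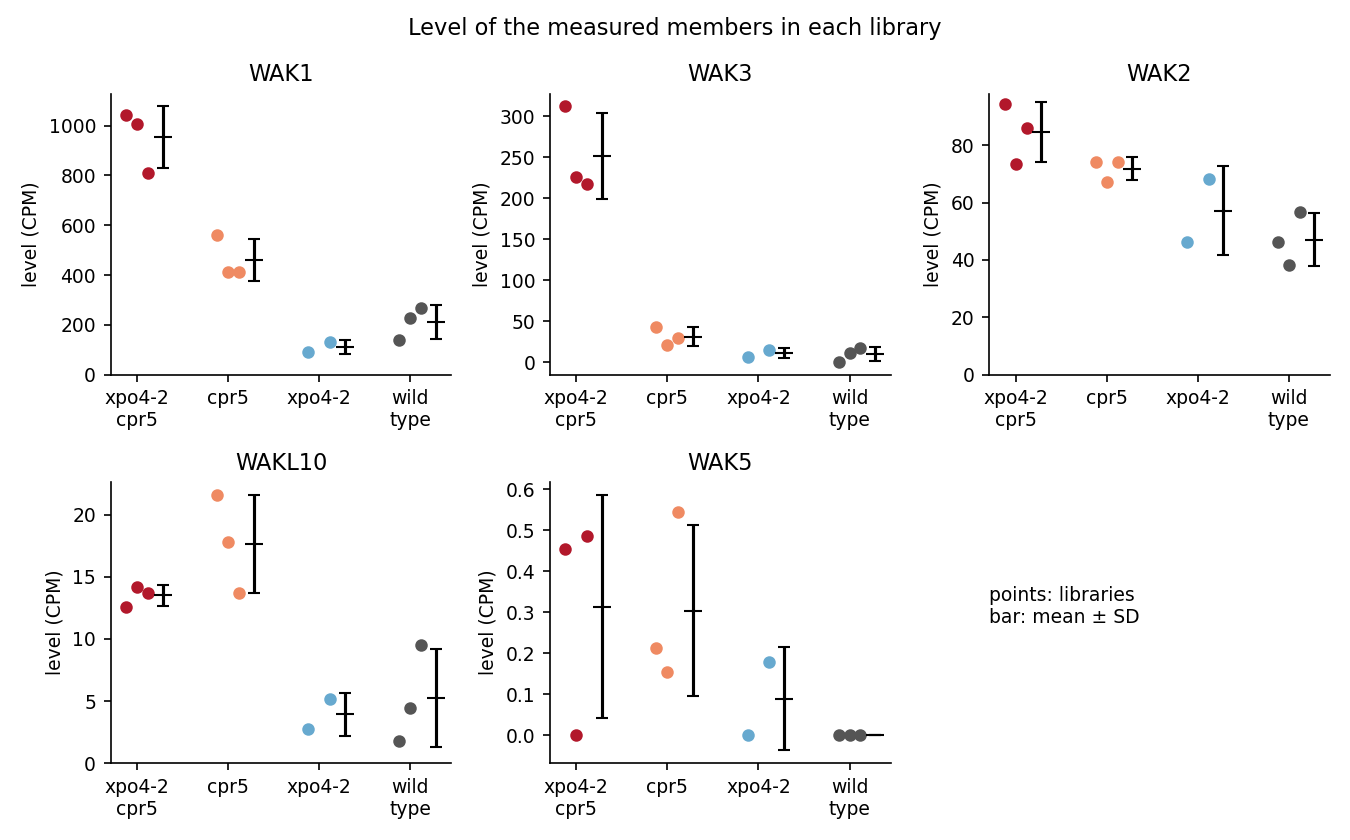
Level of the 5 counted genes in each library, in CPM scaled by TMM factors, by genotype; points are libraries and the bar beside them is the mean with its SD, each panel on its own linear axis. WAK1 and WAK3 in the 3 xpo4-2 cpr5 libraries lie above every other library, while WAKL10 in xpo4-2 cpr5 lies within or below the range of cpr5.

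The main question of the design is what loss of XPO4 does in the cpr5 background. Of the 6 genes, 2 were higher in xpo4-2 cpr5 than in cpr5, WAK1 and WAK3, and none was lower. In that comparison 8.82% of all tested genes were higher and 12.9% lower. WAK1, known as an oligogalacturonide receptor, was 2.07-fold higher and WAK3, its closest relative in the cluster, 8.05-fold higher, while WAK2, WAK5 and WAKL10 did not pass the test.

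WAK1 had 1044, 1007 and 810 CPM in the 3 xpo4-2 cpr5 libraries, 559, 413 and 412 CPM in cpr5, 93.0 and 132 CPM in xpo4-2, and 137, 227 and 270 CPM in wild type. The lowest double mutant library lay above the highest cpr5 library, and no 2 genotypes overlapped. Such separation is given as a description here and below, because the share of all genes separated in this way was not computed. WAK1 was 2.07-fold higher in xpo4-2 cpr5 than in cpr5 (log2 fold change 1.05 ± 0.25 SE, adjusted p = 0.0133; edgeR's quasi-likelihood test with Benjamini-Hochberg adjustment over all genes, the test of every adjusted p here). Leaving out cpr5 replicate 2 or cpr5 replicate 3 left the fold change at 0.97 in both cases but moved the adjusted p past the threshold of 0.05, to 0.0598 and 0.0549.

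WAK3 had 312, 226 and 217 CPM in xpo4-2 cpr5, 43.6, 20.8 and 29.6 CPM in cpr5, 6.84 and 15.8 CPM in xpo4-2, and 0.723, 12.1 and 17.5 CPM in wild type. The double mutant stood apart from all other libraries, cpr5 lay above xpo4-2 and wild type without overlap, and xpo4-2 and wild type overlapped. The lowest wild-type value is that of replicate 1, where WAK3 had 12 counts. WAK3 was 8.05-fold higher in xpo4-2 cpr5 than in cpr5 (log2 3.01 ± 0.71 SE, adjusted p = 0.0132), the 141st highest fold change of the 21580 genes. This call was also lost without cpr5 replicate 2 (2.78, adjusted p = 0.0648) or cpr5 replicate 3 (2.97, adjusted p = 0.0530). Without wild-type replicate 1, which is in neither of the 2 groups but enters the shared estimate of spread, the fold change was again 3.01 and the adjusted p 0.000353.

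WAK2, the member tied to cell expansion, had 94.4, 73.4 and 85.9 CPM in xpo4-2 cpr5, 74.1, 67.3 and 74.1 CPM in cpr5, 46.1 and 68.1 CPM in xpo4-2, and 46.4, 38.3 and 56.7 CPM in wild type. Neighbouring genotypes in this order overlapped. Its log2 fold change in xpo4-2 cpr5 against cpr5 was 0.24 ± 0.18 SE (adjusted p = 0.390).

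WAKL10 had 12.6, 14.2 and 13.7 CPM in xpo4-2 cpr5, 21.6, 17.8 and 13.7 CPM in cpr5, 2.72 and 5.15 CPM in xpo4-2, and 1.75, 4.45 and 9.52 CPM in wild type. It was the only counted member whose mean was lower in xpo4-2 cpr5 than in cpr5, and the libraries of these 2 genotypes overlapped. The log2 fold change was -0.39 ± 0.46 SE (adjusted p = 0.601). WAK5 was barely detected, with 10, 0 and 12 counts in xpo4-2 cpr5, 4, 3 and 9 in cpr5, 0 and 4 in xpo4-2, and 0 in each wild-type library. Only 3 libraries reached the filter's minimum of 0.519 CPM, xpo4-2 cpr5 replicates 1 and 3 and cpr5 replicate 3, and the comparison of xpo4-2 cpr5 with cpr5 gave a log2 fold change of 0.08 ± 1.29 SE (adjusted p = 0.976).

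**Figure D2:**
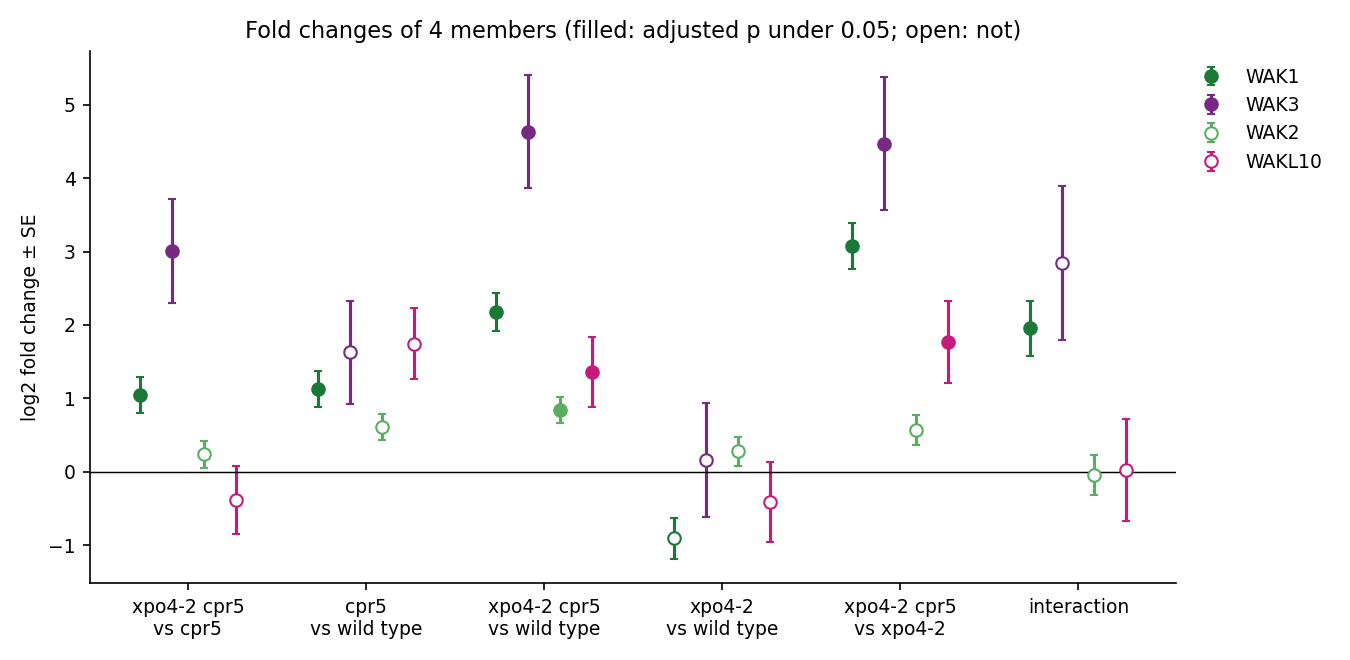
Log2 fold change with its SE for WAK1, WAK3, WAK2 and WAKL10 in the 6 comparisons; filled points passed an adjusted p of 0.05 and open points did not. WAK3 has the highest value in xpo4-2 cpr5 against cpr5 (3.01) and WAKL10 the lowest (-0.39), while against wild type all 4 genes pass in the double mutant.

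The cpr5 mutation on its own was compared with wild type. By edgeR WAK1 was the only member that rose, 2.18-fold (log2 1.13 ± 0.25 SE, adjusted p = 0.0243), none fell, and 4.30% of all genes were higher and 2.34% lower. WAKL10 (1.75 ± 0.48, adjusted p = 0.0574), WAK3 (1.63 ± 0.70, adjusted p = 0.203) and WAK2 (0.61 ± 0.18, adjusted p = 0.0733) had positive fold changes that did not pass. For each of them all 3 cpr5 libraries lay above all 3 wild-type libraries. The share of all genes separated in this way was not computed, so no rise is read from it. WAK5 had 16 counts over the 3 cpr5 libraries and 0 over wild type, and did not pass (adjusted p = 0.174). With wild type set to a floor of 3 counts over the group this is 5.20-fold, which leaves counting error in the 16 aside. WAK5 passed the filter only through xpo4-2 cpr5 and cpr5 libraries, so its comparisons with wild type give no support for a rise. Leaving out any one cpr5 library, or wild-type replicate 2, ended the WAK1 call (adjusted p = 0.0558 to 0.102). Without wild-type replicate 3, the wild-type library highest in both genes, WAKL10 rose with a log2 fold change of 2.50 (adjusted p = 0.00765) and WAK2 with one of 0.76 (adjusted p = 0.0307). DESeq2 also called both (adjusted p = 0.0058 for WAKL10 and 0.0282 for WAK2).

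Both mutations together were compared with wild type, and 4 members rose: WAK3, WAK1, WAKL10 and WAK2. None fell, and 18.1% of all genes were higher and 19.1% lower. WAK3 was 24.8-fold higher (log2 4.63 ± 0.77 SE, adjusted p = 0.000993), WAK1 4.51-fold higher (2.17 ± 0.26, adjusted p = 0.000132) and WAK2 1.79-fold higher (0.84 ± 0.18, adjusted p = 0.00421). These 3 passed under all 21 alternative settings that were run. The size of the WAK3 change was less firm, with a log2 fold change of 5.29 without wild-type replicate 3 and 4.09 without wild-type replicate 1. WAKL10 was 2.56-fold higher (1.36 ± 0.48, adjusted p = 0.0458), and its call was lost in 9 of 21 settings, with the highest adjusted p without wild-type replicate 2 (0.124). Without wild-type replicate 3 its log2 fold change was 2.12 (adjusted p = 0.00296). WAK5 had 22 counts over the 3 double mutant libraries, with 0 in replicate 2, and did not pass (adjusted p = 0.0684). Over the same floor this is 7.06-fold, with the same limits.

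Without the cpr5 mutation, no rise with loss of XPO4 passed, on 2 xpo4-2 libraries. In xpo4-2 against wild type 0 members passed in either direction by edgeR, where 0.755% of all genes were higher and 1.96% lower. WAK1 was at a log2 fold change of -0.91 ± 0.28 SE (adjusted p = 0.117, unadjusted p = 0.00862), the one member with an unadjusted p under 0.05. Both xpo4-2 libraries lay below all wild-type libraries, the nearest at 132 CPM in xpo4-2 and 137 CPM in wild type. By DESeq2 this WAK1 difference passed as a fall (-0.92, adjusted p = 0.0203), as it did in edgeR without wild-type replicate 1 (-1.14, adjusted p = 0.0295). WAK2 was at 0.28 (adjusted p = 0.503), WAK3 at 0.16 ± 0.78 SE (adjusted p = 0.940) and WAKL10 at -0.41 (adjusted p = 0.741), and none of these 3 passed.

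The comparison of xpo4-2 cpr5 with xpo4-2 gives the effect of the cpr5 mutation where XPO4 is lost. WAK3 rose 22.2-fold (log2 4.47 ± 0.91 SE, adjusted p = 0.00437), WAK1 8.46-fold (3.08 ± 0.31, adjusted p = 0.00011) and WAKL10 3.41-fold (1.77 ± 0.56, adjusted p = 0.0376), so 3 members passed, against 13.2% of all genes higher and 15.5% lower. WAK2 was at 0.57 ± 0.20 (adjusted p = 0.0600), passed in 7 of 21 settings, among them DESeq2 (0.58, adjusted p = 0.0304), no scaling beyond library size (0.85, adjusted p = 0.0180) and limma (0.97 to 0.98, adjusted p = 0.0115 to 0.0163), and WAK5 at 1.70 ± 1.62 (adjusted p = 0.484). The median of all genes was itself 0.32 without scaling and 0.28 to 0.40 by limma. Without xpo4-2 replicate 1 only WAK1 passed, with WAK3 at an adjusted p of 0.0557 and WAKL10 at 0.236. Without xpo4-2 replicate 2 the log2 fold change of WAK3 was 5.20 (adjusted p = 0.0211). The WAKL10 call was lost in 10 of 21 settings.

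Whether the effect of xpo4-2 differs between the cpr5 and the wild-type background was tested as an interaction, the log2 effect of xpo4-2 in cpr5 minus that in wild type. It passed for WAK1, at 1.95 ± 0.38 SE (adjusted p = 0.0124), and for no other member, where 3.20% of all genes were higher and 5.51% lower. WAK1 was higher with xpo4-2 in cpr5 and lower, without passing, in wild type. The interaction of WAK3 was 2.84 ± 1.05 (adjusted p = 0.129), and it passed without wild-type replicate 1 (3.39, adjusted p = 0.00448). The interaction of WAK1 did not pass without xpo4-2 replicate 1 (1.72, adjusted p = 0.0706). WAK2 was at -0.04 (adjusted p = 0.949) and WAKL10 at 0.02 (adjusted p = 0.993). Over the 6 comparisons, WAK1 in xpo4-2 against wild type was the only member with a negative fold change and an unadjusted p under 0.05, and DESeq2 called no other member lower.

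Levels were compared between genes in TPM, the deposited transcript abundances, which are scaled for transcript length as well as for library size. They carry no TMM scaling. By limma on log2(TPM + 0.5) with the filter, the median of all genes was 0.31 in xpo4-2 cpr5 against cpr5. It was 0.41 against wild type and 0.36 against xpo4-2. TPM are therefore read between genes, and differences between genotypes are taken from the tested counts. WAK1 was the most abundant member in every genotype, at a mean of 448 ± 46.5 TPM in xpo4-2 cpr5 and 170 ± 23.2 TPM in cpr5 (SD, n = 3 each), 40.5 TPM in xpo4-2 (n = 2) and 75.0 ± 27.3 TPM in wild type (SD, n = 3). WAK3 averaged 142 ± 28.7 TPM in xpo4-2 cpr5, 13.6 ± 4.52 TPM in cpr5, 4.93 TPM in xpo4-2 and 4.35 ± 3.76 TPM in wild type. WAK2 averaged 30.6, 20.3, 15.7 and 12.7 TPM in the same order of genotypes, and WAKL10 7.33, 7.47, 1.64 and 2.16 TPM. WAK3 was therefore the second most abundant member in xpo4-2 cpr5 and came below WAK2 in the other 3 genotypes.

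The cluster as a whole summed to 620 ± 73.3 TPM in xpo4-2 cpr5, 204 ± 27.4 TPM in cpr5, 61.2 TPM in xpo4-2 and 92.0 ± 33.0 TPM in wild type. These sums carry no TMM scaling either, and their differences between genotypes were not tested. Shares within a library do not depend on that scaling. WAK3 made up 20.6% to 24.9% of the cluster sum in xpo4-2 cpr5, against 5.02% to 7.74% in cpr5, 6.13% and 9.21% in xpo4-2, and 0.493% to 6.20% in wild type. The double mutant did not overlap any other genotype in this share. WAK1 had 2.82 to 3.66 times the TPM of WAK3 in xpo4-2 cpr5, 10.8 to 16.8 times in cpr5, 7.06 and 11.1 times in xpo4-2, and 13.0 to 160 times in wild type, where the highest ratio is that of replicate 1. WAK2 made up 4.19% to 5.80% of the cluster sum in xpo4-2 cpr5 and 8.47% to 11.2% in cpr5, against 25.6% and 25.9% in xpo4-2 and 10.8% to 20.4% in wild type. Nearly all WAK3 signal was assigned to the first of its 2 annotated transcripts. The second reached 7.96 TPM in xpo4-2 cpr5 replicate 2 and was listed at 0 in the other 2 double mutant libraries.

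**Figure D3:**
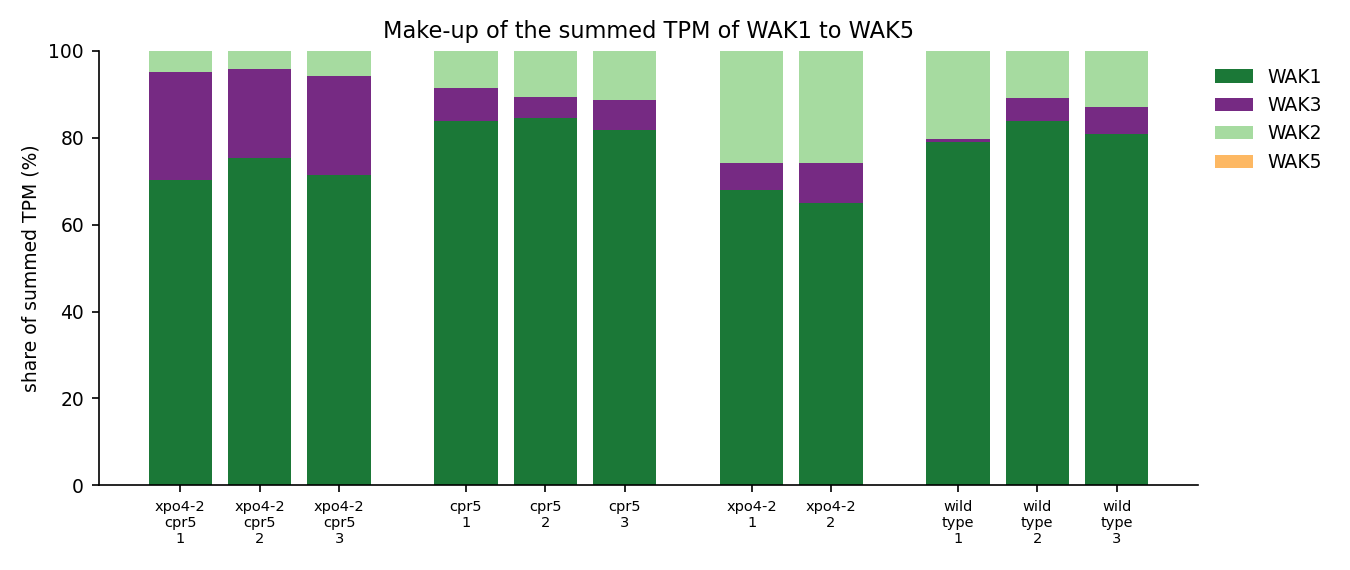
Share of the summed TPM of WAK1 to WAK5 taken by each gene in each library; every bar adds up to 100% and WAK5 is too small to see. WAK3 takes 20.6% to 24.9% in the 3 xpo4-2 cpr5 libraries and at most 9.21% in any other library.

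The genes around the cluster were measured in the same fit. Before it lie SEC5B, a subunit of the exocyst, LSM3A, a subunit of an RNA-binding ring, and the transcription factor gene AT1G21200, and none of the 3 passed in any of the 6 comparisons. Their log2 fold changes in xpo4-2 cpr5 against cpr5 were 0.33, 0.28 and 0.37. After the cluster lies EXT3, which encodes a structural extensin of the wall. It was at 1.13 in xpo4-2 cpr5 against cpr5 (adjusted p = 0.0986), rose against wild type in xpo4-2 cpr5 (1.68, adjusted p = 0.0148) and passed against xpo4-2 (1.58, adjusted p = 0.0448), a call that was lost in 8 of 21 settings. Between WAK3 and WAK1 lies AT1G21245, a fragment of a kinase gene that has no line in the count table.

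**Figure D4:**
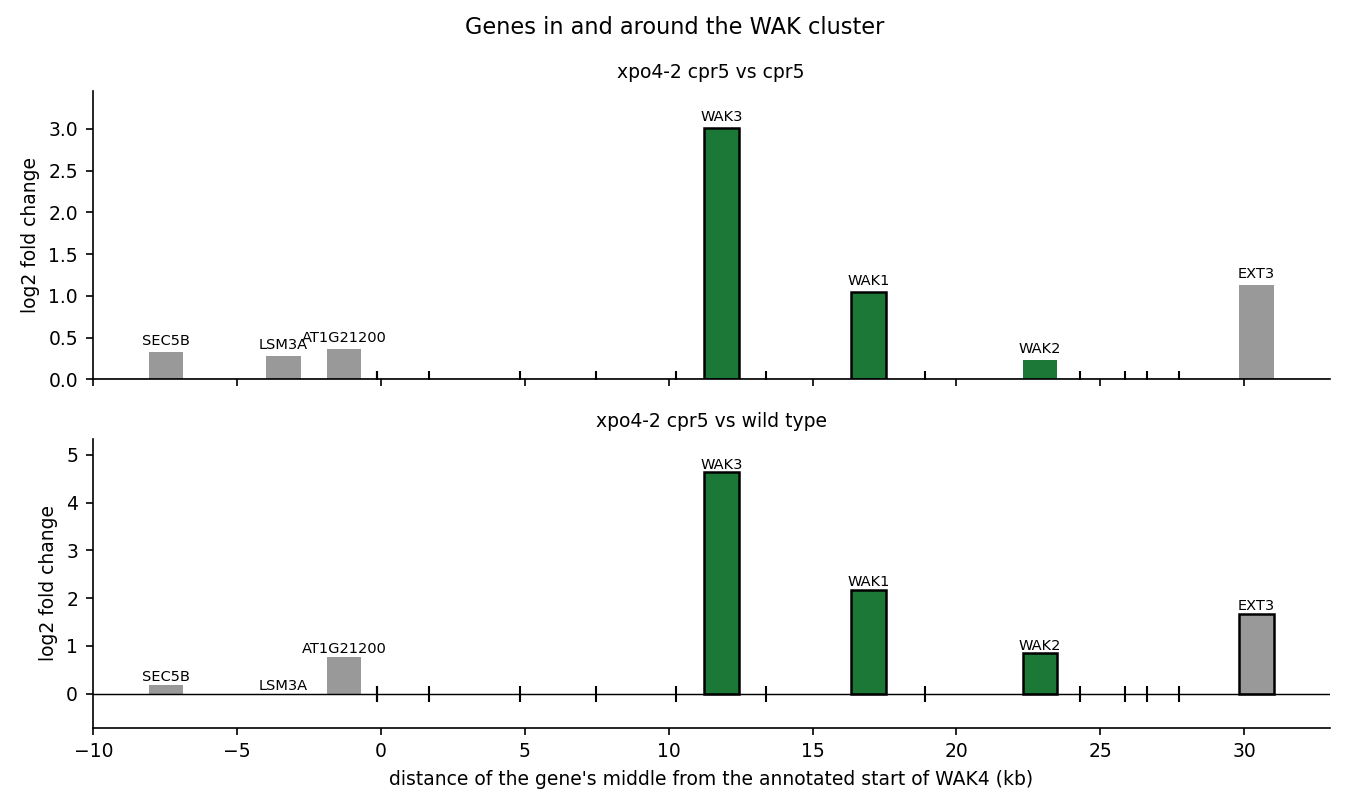
Log2 fold change of the genes in and beside the cluster against the distance of the gene's middle from the annotated start of WAK4, in kb, for xpo4-2 cpr5 against cpr5 and against wild type; outlined bars passed, green bars are wall-associated kinases and ticks are genes with no fold change shown. WAK3 (3.01) stands above WAK1 (1.05) and WAK2 (0.24) in the upper panel, and the genes before the cluster pass in neither panel.

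Among the other WAK-like genes, 13 of a list of 19 were counted. Of the 13, 1 rose in xpo4-2 cpr5 against cpr5 (0 to 3 over the alternatives) and 1 fell, 7.69% of the list each way beside 8.82% and 12.9% over all genes, with a median log2 fold change of 0.08, against 0.01 over all genes. AT2G23450 had a mean of 127 ± 16.9 CPM in xpo4-2 cpr5 and 89.4 ± 5.87 CPM in cpr5 (SD, n = 3 each; log2 0.51, adjusted p = 0.0197), a call lost in 3 of 21 settings, and AT5G66790 had 5.15 ± 2.81 CPM in xpo4-2 cpr5 and 18.6 ± 1.18 CPM in cpr5 (-1.85, adjusted p = 0.00574). In cpr5 against wild type 4 rose by edgeR (2 to 7 over the alternatives), which is 30.8% of the list beside 4.30% over all genes, with a median of 0.78, against -0.01 over all genes. They were WAKL4 (2.58, adjusted p = 0.0275, lost in 5 of 21 settings, 3.25 without wild-type replicate 3 and 1.40 by limma at a pseudocount of 0.5), AT2G23450 (0.86, adjusted p = 0.00542), RFO1 (0.79, adjusted p = 0.00818), a kinase gene known for resistance to the wilt fungus Fusarium oxysporum, and WAKL6 (0.55, adjusted p = 0.0462). Neither RFO1 (0.08, adjusted p = 0.711) nor WAKL6 (0.08, adjusted p = 0.744) passed in xpo4-2 cpr5 against cpr5. Against wild type, xpo4-2 cpr5 had 5 that rose (5 to 8 over the alternatives) and 1 that fell, 38.5% and 7.69% of the list beside 18.1% and 19.1% over all genes, with a median of 0.64. The largest values there were those of AT2G23450 (1.37), AT4G31100 (1.16) and AT1G69730 (0.88) among those that rose and AT5G66790 (-1.15) for the one that fell, a call lost in 8 of 21 settings. Against xpo4-2, the double mutant had 4 that rose (3 to 6 over the alternatives), led by AT1G69730 (2.29, adjusted p = 0.000237), WAKL6 (1.15, adjusted p = 0.000626) and AT2G23450 (1.13, adjusted p = 0.000424). These 4 are 30.8% of the list, beside 13.2% over all genes. In xpo4-2 against wild type AT1G69730 was the only one to pass, 7.69% of the list beside 1.96% of all genes lower. It fell (-1.41, adjusted p = 0.0241), a call that was lost in 8 of 21 settings. Its interaction also passed (1.89 ± 0.35 SE, adjusted p = 0.00972) and did so in all 20 alternatives. AT1G69730 had a mean of 23.7 CPM in xpo4-2 cpr5 and 17.0 CPM in cpr5, and of 4.85 CPM in xpo4-2 and 12.9 CPM in wild type. No other gene of the list passed the interaction. This 1 gene is 7.69% of the list, beside 3.20% of all genes that passed on the positive side.

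**Figure D5:**
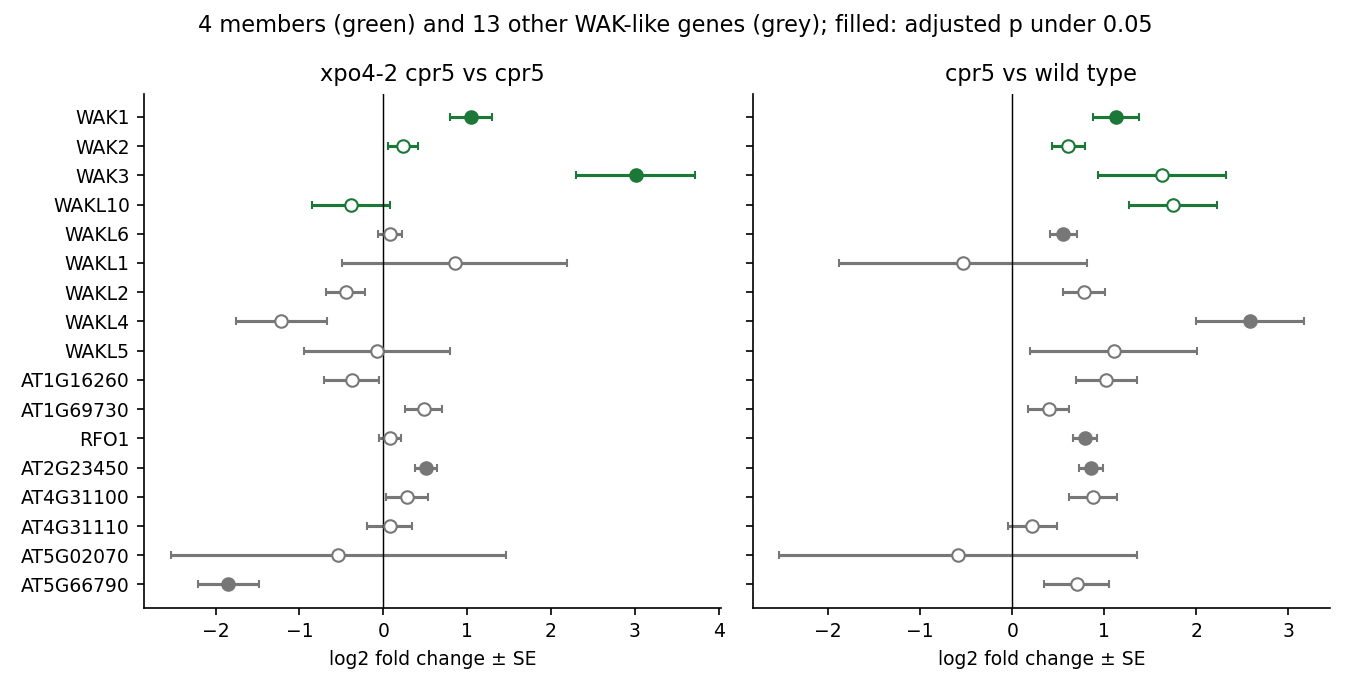
Log2 fold change with its SE of 4 members (green) and 13 other WAK-like genes (grey), in xpo4-2 cpr5 against cpr5 and in cpr5 against wild type; filled points passed an adjusted p of 0.05. WAK3 has the highest value in the left panel (3.01), where AT5G66790 has the lowest (-1.85).

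A list of 30 genes of pectin synthesis, pectin breakdown and oligogalacturonide signalling, all 30 counted, was read beside the kinases. In the double mutant against cpr5, 6 rose and 5 fell (4 to 9 and 3 to 7 over the alternatives), with a median of -0.08. As shares of the 30 these are 20% and 16.7%, beside 8.82% and 12.9% over all genes. The polygalacturonases, which cut pectin into the fragments that wall-associated kinases bind, were among those that rose. PGAZAT, also named ADPG2, had 55.4 ± 33.6 CPM in xpo4-2 cpr5 and 6.82 ± 2.25 CPM in cpr5 (log2 3.02, adjusted p = 0.00475), and ADPG1 had 19.4 ± 6.44 CPM in xpo4-2 cpr5 and 3.56 ± 2.99 CPM in cpr5 (2.45, adjusted p = 0.0127). The pectin methylesterase inhibitor gene AT3G47380 also rose (1.40, adjusted p = 0.00863). PGIP2, annotated as a polygalacturonase inhibiting protein, fell, with 62.1 ± 5.49 CPM in xpo4-2 cpr5 and 235 ± 23.5 CPM in cpr5 (-1.92, adjusted p = 0.000109). Whether it acts on PGAZAT or ADPG1 was not tested. GAE6 (-1.08, adjusted p = 0.000415) and GAE1 (-0.92, adjusted p = 0.0220), epimerases that make the sugar nucleotide for pectin, fell as well. Without cpr5 replicate 1 the calls of ADPG1 (adjusted p = 0.0531) and GAE1 (adjusted p = 0.0819) were lost. Leaving out 1 library moved PGAZAT to 2.43 (without xpo4-2 cpr5 replicate 2) and ADPG1 to 3.39 (without cpr5 replicate 3).

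In cpr5 against wild type 4 genes of this list rose (2 to 6 over the alternatives) and 1 fell (0 to 3), 13.3% and 3.33% of the list beside 4.30% and 2.34% over all genes, with a median of 0.26. ADPG1 (6.31, adjusted p = 0.00431) was at 0.0376 CPM in wild type, and PGAZAT (3.53, adjusted p = 0.0152) at 0.569 CPM. That wild-type mean of ADPG1 is under the filter's minimum of 0.519 CPM, and its xpo4-2 mean was 0. ADPG1 therefore passed the filter only through libraries with the cpr5 mutation. Its comparisons with wild type and with xpo4-2 give no support for a rise, and the numbers of genes that rose in those comparisons include it. MPK3, a kinase of the oligogalacturonide response, rose (0.77, adjusted p = 0.0101), and GAUT1, a galacturonosyltransferase of pectin synthesis, fell (-0.58, adjusted p = 0.0108). Leaving out 1 library ended the calls of PGAZAT, GAUT1 and MPK3, with adjusted p up to 0.0564, 0.0537 and 0.0506. The log2 fold change of ADPG1 was 5.37 without cpr5 replicate 3, that of PGAZAT 4.47 without wild-type replicate 3, and by limma at a pseudocount of 0.5 they were 2.40 and 2.59. In the double mutant against wild type 10 rose and 8 fell (10 to 17 and 5 to 9 over the alternatives), with a median of 0.23, which are 33.3% and 26.7% of the list, beside 18.1% and 19.1% over all genes. There the pectin methylesterase gene AT2G45220 had 270 ± 37.2 CPM in xpo4-2 cpr5 and 17.0 ± 14.6 CPM in wild type (3.99, adjusted p = 0.00426), and PMR6, a pectate lyase-like gene known for powdery mildew susceptibility, fell (-1.18, adjusted p = 0.000265). In xpo4-2 against wild type 2 fell, PGIP2 (-1.17, adjusted p = 0.0136) and GAE6 (-0.63, adjusted p = 0.0494), both calls lost in some settings, 3 and 15 of 21. These 2 are 6.67% of the list, beside 1.96% lower over all genes. In xpo4-2 cpr5 against xpo4-2, 10 rose and 8 fell (8 to 14 and 3 to 9 over the alternatives), with a median of 0.19, which are 33.3% and 26.7% of the list, beside 13.2% and 15.5% over all genes. The interaction passed for AT3G47380 (2.19, adjusted p = 0.0176), GRP-3 (1.39, adjusted p = 0.0231), a glycine-rich wall protein that binds WAK1, and HERK1 (0.98, adjusted p = 0.0306) on the positive side, and for MPK3 (-1.07, adjusted p = 0.0118) and PMR6 (-1.05, adjusted p = 0.0202) on the negative side. As shares of the list these are 10% and 6.67%, beside 3.20% and 5.51% over all genes. All 5 were lost without xpo4-2 replicate 1 (adjusted p = 0.0645 to 0.110). Over the alternatives, 0 to 6 passed on the positive and 0 to 3 on the negative side.

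The genes whose profile over the 11 libraries was most like that of each member were ranked by Pearson's r of log2(CPM + 1). The libraries fall into genotype groups, so r mainly follows the group means and is given as a description. For WAK1 they were AT1G23840, an uncharacterized gene (r = 0.988), LURP1, a gene known for late upregulation in response to an oomycete pathogen (r = 0.988), and AT3G47090, a leucine-rich repeat kinase (r = 0.985). LURP1 averaged 458 CPM in xpo4-2 cpr5, 183 CPM in cpr5, 22.5 CPM in xpo4-2 and 41.2 CPM in wild type. For WAK3 they were GPK1, annotated as a glyoxysomal protein kinase (r = 0.991), the chitinase gene CHI, AT2G43570 (r = 0.990), and AT4G00700 (r = 0.988). CHI averaged 287 CPM in xpo4-2 cpr5, 58.1 CPM in cpr5, 19.2 CPM in xpo4-2 and 18.4 CPM in wild type. For WAK2 they were AT4G18630, ASD1, an arabinofuranosidase of the wall, and PLDALPHA3, a phospholipase (r = 0.957 to 0.960). For WAKL10 they were AT3G07195, a gene of the RIN4 family, AT1G16670, a kinase, and PAPP2C, a protein phosphatase (r = 0.965 to 0.973). AT3G07195 averaged 39.9 CPM in xpo4-2 cpr5 and 60.4 CPM in cpr5, against 12.1 CPM in xpo4-2 and 19.3 CPM in wild type, and like WAKL10 its mean was highest in cpr5. No member was among the 3 most like genes of another member. For WAK5, at so few counts, the list was AT3G49970, AT1G08543 and AT3G07425 (r = 0.906 to 0.943), all under 1 CPM on average in every genotype.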

How the data were processed

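Whole-number read counts per gene for 11 libraries and transcript TPM values were deposited by the authors. HISAT2 2.0.4, HTSeq 0.6.1p1 and the TAIR10 build are named per the submitters' processing notes, without the role of each. The name of the deposited TPM table credits kallisto, and whether the deposited counts are counted reads or rounded estimates was not stated. The deposited table leaves out genes with low counts: each listed gene has 5 or more counts in at least 2 libraries. It has no line that names no gene.

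Counts were tested with edgeR 4.0.16 (R 4.3.3; filterByExpr by group, TMM, glmQLFit and glmQLFTest) in a joint model of the 11 libraries with 1 coefficient for each genotype, and Benjamini-Hochberg adjustment ran over 21580 genes at a threshold of 0.05 with no fold threshold. The filter removed 580 genes. The common dispersion was 0.093. Each SE was derived from a log2 fold change and the square root of its F value. In the text, CPM are counts per 1000000 after TMM scaling, and TPM of a gene's transcripts were summed. Reads carried no molecular identifiers, so the floor of 3 counts covers only counting error in the group without counts. The script was tested on simulated data.

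Sequences and annotation came from RefSeq's TAIR10.1 assembly; its chromosome coordinates are given as that build's, and the count table holds none. Proteins were translated from the annotated coding sequence and aligned with MAFFT 7.526. Motifs were searched on both strands. Figures were drawn with matplotlib.

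Groups and replicate numbers came from the sample titles. The design text speaks of triplicates, and 2 xpo4-2 libraries were analysed here. The 6 genes, the gene lists, the tests and the rules were chosen with earlier results of these data known. Beyond the members, the named genes were the measured genes within 5 genes of the cluster, the 3 listed genes with the largest change per direction among those that passed, and the 3 genes most like each member; other genes in the text (WAKL6 and RFO1 in a second comparison) were named after their values were seen. Alternatives were DESeq2 1.42.0, other scaling, other filters, only the groups compared, the replicate number as a block, limma 3.58.1 on log2(TPM + 0.5) or log2(TPM + 0.1), and leaving out each library. They were also run for the wider lists, the named genes and the neighbours, which was chosen after seeing the data.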

Additional observations from a re-analysis of the deposited data

Results flagged for a closer look

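The effect of xpo4-2 on WAK1 differed between the 2 backgrounds by the interaction test, at 1.95 on the log2 scale (adjusted p = 0.0124, edgeR's quasi-likelihood test). WAK1 was higher in all 3 xpo4-2 cpr5 libraries than in the 3 cpr5 libraries, and lower in both xpo4-2 libraries than in the 3 wild-type libraries. The nearest of the latter were 132 CPM in xpo4-2 and 137 CPM in wild type. The share of all genes separated in these ways was not computed, so the separation is only a description. The second difference did not pass on its own (-0.91, adjusted p = 0.117), and the interaction did not pass without xpo4-2 replicate 1 (1.72, adjusted p = 0.0706). Over the 20 alternatives the interaction ran from 1.72 to 2.26, with an adjusted p from 9.99e-06 to 0.0706. Of the listed genes, the interaction also passed for AT1G69730 (1.89), the pectin methylesterase inhibitor gene AT3G47380 (2.19), GRP-3 (1.39), HERK1 (0.98), MPK3 (-1.07) and PMR6 (-1.05). AT1G69730 passed in all 20 alternatives, and the other 5 did not pass without xpo4-2 replicate 1.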

How the results depend on the processing

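Over 21 alternatives (20 for the interaction), 474 values of members kept direction and side of the threshold, 30 lost a call, 16 gained one and 20 changed sign; the causes were not tested. In xpo4-2 cpr5 against cpr5, 0 to 2 members were higher when 1 library was left out, and 2 under every other alternative. In cpr5 against wild type the number higher was 3 by DESeq2 (WAK1, WAK2, WAKL10), 0 with only the groups compared, 2 by limma at either pseudocount, and 0 to 3 with 1 library left out. In xpo4-2 against wild type 1 member was lower by DESeq2, and 0 to 1 with 1 library left out. In xpo4-2 cpr5 against xpo4-2, 1 to 4 were higher with 1 library left out and 2 to 4 under the other alternatives, where WAK2 passed in 7 settings in all; in the interaction 0 to 2 were higher with 1 library left out. In xpo4-2 cpr5 against wild type, 3 or 4 were higher throughout and none was lower. Sign changes were limited to values that had not passed. The interaction of WAK2 was 0.22 without scaling and 0.29 by limma with either pseudocount or without a filter, and ran from -0.30 to 0.26 with 1 library left out. That of WAKL10 was -0.26 with the replicate block and ran from -0.73 to 0.56. With 1 library left out, WAK5 ran from -0.37 to 0.77 in xpo4-2 cpr5 against cpr5, and in xpo4-2 against wild type WAK2 ran from -0.0297 to 0.53, WAK3 from -0.57 to 0.82 and WAKL10 from -0.95 to 0.34. Of 15 same-numbered pairs of libraries, 1 had deviations correlated over 0.1 (range -0.113 to 0.286), that of xpo4-2 and wild-type replicates 1. Pairs with different numbers were not computed, so whether replicate numbers pair the libraries cannot be told from these values. The replicate block ended 1 call of a member, WAKL10 in xpo4-2 cpr5 against xpo4-2 (1.68, adjusted p = 0.0669). By limma on log2(TPM + 0.5) with the filter, the median of all genes was 0.31 in xpo4-2 cpr5 against cpr5, 0.41 against wild type, 0.36 against xpo4-2 and 0.27 in the interaction. Without scaling beyond library size the median of all genes moved to 0.27 in xpo4-2 cpr5 against cpr5 and 0.32 against wild type and against xpo4-2, and 0.25 in the interaction. The genes higher and lower were then 4247 and 1787, against 1904 and 2778 with TMM, in xpo4-2 cpr5 against cpr5; 6495 and 2815, against 3900 and 4111, in xpo4-2 cpr5 against wild type; 4852 and 2155, against 2841 and 3348, in xpo4-2 cpr5 against xpo4-2; and 1354 and 784, against 691 and 1189, in the interaction. WAK5 rests on 0 to 12 counts a library. A lone xpo4-2 library, when the other is left out, is assumed to vary like the other groups.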
